A study of Homo sapiens with 10 samples.

Results

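The mitochondrial ribosomal protein genes examined here are the protein-coding genes whose symbols start with *MRPL* or *MRPS* and a digit. There were 78 of them among the 13029 genes of the *ZMAT3* experiment, and 76 had values among the 17642 entries of the siRNA experiment. Both experiments measured mRNA by RNA-seq in HCT116, a human colorectal cancer cell line. The first compared 3 cultures of a *ZMAT3*-WT clone with 3 cultures of a *ZMAT3*-KO clone, in which CRISPR/Cas9 removed sequence in an intron of *ZMAT3*, an edit that lowers its mRNA and leaves the gene in place. Only 1 clone stood for each genotype, so the spread between replicates is that between cultures, and clone and genotype cannot be told apart. The sample labels also carry the abbreviations EV and unt, which the sources used here do not explain. The second experiment compared 2 cultures transfected with a control siRNA (siCTRL) and 2 transfected with a pool of 4 siRNAs (sip53), each for 72 hours.

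The mitochondrial ribosome translates the small set of respiratory chain proteins that mitochondrial DNA encodes. Its ribosomal RNAs come from mitochondrial DNA, whereas its proteins are encoded in the nucleus, made in the cytosol and imported. Symbols with L usually denote proteins of the large subunit, which joins amino acids, and symbols with S proteins of the small subunit, which reads the mRNA. Some members have bacterial counterparts and others were added in mitochondria. The names do not follow the structure throughout. MRPS18A and MRPS30 are part of the large subunit and were counted there, and MRPS36 is known as a component of the 2-oxoglutarate dehydrogenase complex and was counted in neither, which left 51 genes of the large and 26 of the small subunit.

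The labels were checked first. *ZMAT3* was 7.43-fold lower in *ZMAT3*-KO cells (limma adjusted p = 3.76e-12). *CDKN1A*, which encodes the cell cycle inhibitor p21, was 14-fold lower with sip53 (limma adjusted p = 0.00869). In the same libraries *ZMAT3* read 12 and 13.6 FPKM (siCTRL) against 3.16 and 1.97 FPKM (sip53), with a limma adjusted p of 0.0670. *CDKN1A* was also 1.44-fold lower in *ZMAT3*-KO than in *ZMAT3*-WT cells (limma adjusted p = 2.02e-08). Of 10 colorectal epithelial markers, 7 were listed in the *ZMAT3* experiment and each was above 1 CPM in at least 1 library, with *KRT20* at a mean log2 CPM of 1.32 in *ZMAT3*-WT and -0.15 in *ZMAT3*-KO libraries, while *CDX1*, *CEACAM5* and *VIL1* were not listed. Their summed level was 5759 to 6085 CPM in *ZMAT3*-WT and 3161 to 3242 CPM in *ZMAT3*-KO libraries, with *KRT8*, *KRT18*, *KRT19* and *KRT20* lower and *EPCAM* and *CDH1* not past the test. Of 10 markers of leukocytes, endothelium, fibroblasts and hepatocytes, *CD68* and *COL1A1* were listed there, and their sum was 11.3 to 11.4 CPM in *ZMAT3*-WT and 14.1 to 14.4 CPM in *ZMAT3*-KO libraries. In the siRNA experiment, 8 epithelial markers were listed and summed to 3739 to 3975 FPKM with siCTRL and 3536 to 4172 FPKM with sip53, whereas 3 markers of other cell types summed to 6.24 to 13.5 and 17.7 to 34.2 FPKM, with *CD68* the larger share of the difference. The part of these marker differences in the results below was not tested. No deposited value carries read depth, so the depth of the libraries is unknown.

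The abundance of these mRNAs can be compared between genes only in the siRNA experiment, where the values are scaled to gene length (FPKM). Over all 4 libraries the 76 genes had a median of 62.6 FPKM, and the middle of the distribution ran from 43.2 to 84.6 FPKM. The large-subunit genes had a median of 72.1 FPKM and the small-subunit genes one of 58.9 FPKM. The highest means were those of *MRPL51* at 158 FPKM, *MRPS34* at 158 FPKM and *MRPS23* at 157 FPKM. The lowest were those of *MRPL30* at 6.67 FPKM, *MRPL50* at 11.2 FPKM and *MRPS31* at 12.2 FPKM. Neighbours at the top of this order did not separate. *MRPS23* spanned 128 to 188 FPKM and *MRPS34* 131 to 189 FPKM over the libraries, and both ranges overlapped that of *MRPL51* (129 to 185 FPKM). At the lower end, all 4 values of *MRPL30* (4.06 to 7.99 FPKM) were below all 4 of *MRPL50* (9.15 to 13.3 FPKM), and those of *MRPL50* overlapped those of *MRPS31* (11.2 to 13.7 FPKM). The place of *MRPL30* holds on this scale only. In the *ZMAT3* experiment, with no scaling to length, its mean was 6.47 log2 CPM, against 5.18 for *MRPL50* and 4.51 for *MRPS31*. The lengths used for the FPKM are not known, and the reason for the difference was not tested.

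The comparison of *ZMAT3*-KO with *ZMAT3*-WT cells asked which RNAs depend on ZMAT3, an RNA-binding zinc finger protein. Most mitochondrial ribosomal protein mRNAs were lower in *ZMAT3*-KO cells, each by a small amount. Of the 78 genes, 53 (67.9%) had a limma adjusted p under 0.05 and were lower, against 30.1% of all genes tested. Only 4 (5.13%) were higher, against 28.7% of all genes, and 21 did not pass the test. The median log2 fold change was -0.17, a ratio of 0.887, where the median of all genes was -0.01, and 68 of the 78 values were below 0. In 58 genes every *ZMAT3*-KO library was below every *ZMAT3*-WT library (32.9% of all genes), and in 4 every one was above (31.3% of all genes). Changes were small beside the 1.5-fold threshold used in the study. A single member, *MRPS31*, was lower by more than 1.5-fold (4.37% of all genes), none was higher by as much (4.6% of all genes), and 22 of the 53 lower genes changed by at least 1.2-fold. Replicates lay close together, with a median SD of 0.04 log2 units within each group. In bulk RNA, fewer cells that express a gene and less RNA per cell cannot be told apart.

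**Figure D1:**
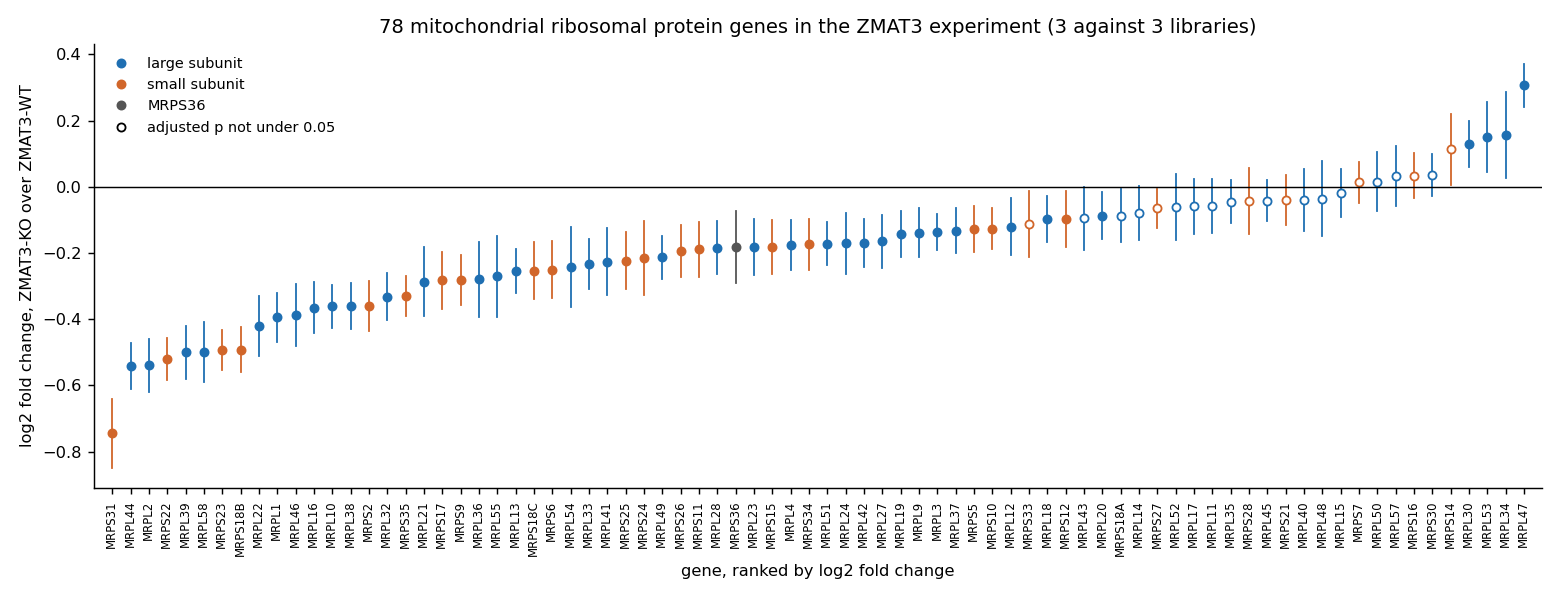
Log2 fold change of each of the 78 genes (y axis, *ZMAT3*-KO over *ZMAT3*-WT, 3 libraries a group), ranked on the x axis, with the 95% confidence interval from limma as a line. Blue points are large-subunit genes, orange points small-subunit genes, the grey point is *MRPS36*, and open points did not reach an adjusted p under 0.05. Points lie below 0 for 68 genes, from *MRPS31* at -0.74, and the 4 filled points above 0 end with *MRPL47* at 0.31.

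As a share of the summed values, the 78 genes took 0.710%, 0.688% and 0.689% of the 3 *ZMAT3*-WT libraries and 0.623%, 0.600% and 0.622% of the 3 *ZMAT3*-KO libraries. The groups did not overlap in this share. Both subunits contributed. In the large subunit 33 of 51 genes were lower and 4 higher, with a median log2 fold change of -0.16, and in the small subunit 19 of 26 were lower and none higher, with a median of -0.19. Of the 47 genes with a bacterial counterpart, 33 were lower and 3 higher (median -0.16). Of the 30 without one, 19 were lower and 1 higher (median -0.18). The difference between these classes was not tested, since genes of 1 particle are not replicates of each other.

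*MRPS31*, a small-subunit protein with no bacterial counterpart, had the largest decrease. The gene (ENSG00000102738) lies on chromosome 13 (hg38, GENCODE release 44; start 40729128, end 40771190, minus strand). Its mRNA stood at 4.82, 4.92 and 4.91 log2 CPM in *ZMAT3*-WT against 4.15, 4.19 and 4.07 in *ZMAT3*-KO cultures. The groups were far apart against their own spread, with means of 4.88 ± 0.06 and 4.14 ± 0.06 (SD, n = 3 each). It changed by -0.74 on the log2 scale (limma standard error 0.048, adjusted p = 5.17e-08), a 1.68-fold decrease. It stayed between -0.78 and -0.71 when any single library was dropped. The listed *MRPS31* pseudogenes *MRPS31P4* and *MRPS31P5* had log2 fold changes of 0.27 and 0.26, neither past the test (limma adjusted p = 0.206 and 0.104). Reads that fit gene and pseudogene alike could be divided between them by the counting.

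*MRPL44*, a large-subunit protein with no bacterial ribosomal counterpart, was next. The gene (ENSG00000135900) lies on chromosome 2 from 223957463 to 223967714. Its mRNA stood at 6.58, 6.54 and 6.52 log2 CPM in *ZMAT3*-WT against 6.04, 5.97 and 6.0 in *ZMAT3*-KO cultures. The lowest *ZMAT3*-WT value was well above the highest *ZMAT3*-KO value. It changed by -0.54 on the log2 scale (limma standard error 0.032, adjusted p = 2.39e-08).

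*MRPL2* is the counterpart of a bacterial protein that lies close to the site of peptide bond formation. Its mRNA stood at 6.23, 6.14 and 6.11 log2 CPM in *ZMAT3*-WT against 5.64, 5.63 and 5.61 in *ZMAT3*-KO cultures. The *ZMAT3*-KO libraries were almost equal and lay below all 3 *ZMAT3*-WT libraries. It changed by -0.54 on the log2 scale (limma standard error 0.037, adjusted p = 9.38e-08).

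*MRPS22*, a small-subunit protein with no bacterial counterpart, changed by -0.52 (standard error 0.029, limma adjusted p = 1.39e-08). It read 6.96, 6.96 and 6.97 log2 CPM in *ZMAT3*-WT against 6.48, 6.42 and 6.43 in *ZMAT3*-KO cultures. *MRPL39*, a large-subunit protein related in sequence to threonyl-tRNA synthetase, read 5.81, 5.73 and 5.83 log2 CPM in *ZMAT3*-WT against 5.31, 5.26 and 5.31 in *ZMAT3*-KO cultures, and changed by -0.50 (standard error 0.037, limma adjusted p = 2.05e-07). In both genes the groups were separate. They were followed by *MRPL58* at -0.50, which encodes the peptidyl-tRNA hydrolase of the large subunit, *MRPS23* at -0.49 and *MRPS18B* at -0.49.

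The vertebrate mitochondrial ribosome has 3 proteins derived from the bacterial S18 protein, and their mRNAs fell by different amounts or did not pass the test. *MRPS18B*, in the small subunit, read 7.03, 6.97 and 6.99 log2 CPM in *ZMAT3*-WT against 6.55, 6.47 and 6.49 in *ZMAT3*-KO cultures (log2 fold change -0.49, limma adjusted p = 4.78e-08). *MRPS18C*, also in the small subunit, changed by -0.25 (limma adjusted p = 0.000137). *MRPS18A*, in the large subunit, changed by -0.09 (standard error 0.037, limma adjusted p = 0.0596), and passed without *ZMAT3*-KO replicate 3 (limma adjusted p = 0.0384) and with the replicate block (limma adjusted p = 0.0418). The 95% confidence interval of *MRPS18A* (-0.17 to -0.01) and that of *MRPS18B* (-0.56 to -0.42) did not meet. *MRPS30*, the other large-subunit protein with an S name, changed by 0.04 (95% confidence interval -0.03 to 0.10). *MRPS36* changed by -0.18 (limma adjusted p = 0.00746), close to the median of the ribosomal proteins.

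The 4 genes that were higher are all of the large subunit. *MRPL47*, the counterpart of a protein near the exit of the bacterial peptide tunnel, had the largest increase. Its mRNA stood at 6.59, 6.55 and 6.55 log2 CPM in *ZMAT3*-WT against 6.89, 6.84 and 6.88 in *ZMAT3*-KO cultures. Every *ZMAT3*-KO value was above every *ZMAT3*-WT value. It changed by 0.31 on the log2 scale (limma standard error 0.030, adjusted p = 2.28e-06), and it stayed between 0.30 and 0.32 when any single library was dropped.

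*MRPL34*, *MRPL53* and *MRPL30* were higher by less. *MRPL34* read 5.77, 5.55 and 5.55 log2 CPM in *ZMAT3*-WT against 5.86, 5.69 and 5.79 in *ZMAT3*-KO cultures, so that its groups overlapped (log2 fold change 0.16, limma adjusted p = 0.0393). *MRPL53* changed by 0.15 (limma adjusted p = 0.0186) and *MRPL30* by 0.13 (limma adjusted p = 0.00398), both with separate groups. The call on *MRPL34* was lost without *ZMAT3*-KO replicate 1 or 3 or *ZMAT3*-WT replicate 2 or 3 (limma adjusted p = 0.0910 to 0.161), and without a variance trend in the fit (limma adjusted p = 0.131). That on *MRPL53* was lost without *ZMAT3*-KO replicate 1 or 3 or *ZMAT3*-WT replicate 3 (limma adjusted p = 0.0698 to 0.0772). Without any 1 of *ZMAT3*-KO replicate 1, *ZMAT3*-KO replicate 3 or *ZMAT3*-WT replicate 3, only 2 members were higher in place of 4.

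**Figure D2:**
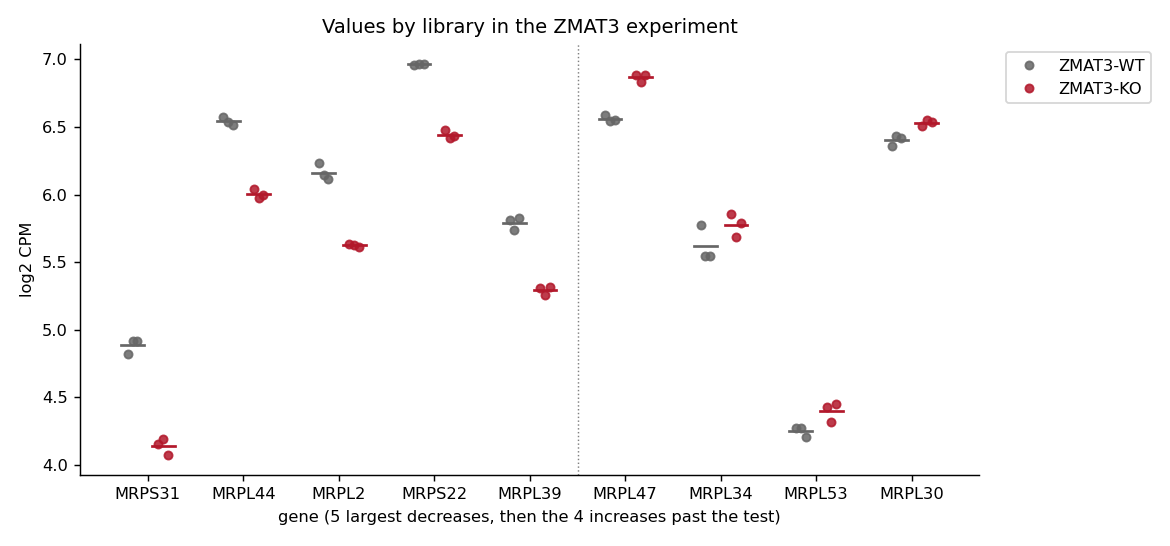
Log2 CPM (y axis) of the 5 genes with the largest decreases and the 4 genes that were higher (x axis), with a point for each library, grey for *ZMAT3*-WT and red for *ZMAT3*-KO, and a line at the mean of each group (n = 3). The groups are separate in 8 of the 9 genes, and in *MRPL34* the *ZMAT3*-WT library at 5.77 lies among the *ZMAT3*-KO libraries.

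The 21 genes that did not pass the test had log2 fold changes between -0.11 and 0.11. They include *MRPS7* (0.01), *MRPS16* (0.03) and *MRPL15* (-0.02), all with bacterial counterparts. For *MRPS7* the 95% confidence interval was -0.05 to 0.08. That interval does not reach the median decrease of the members.

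Position along the genome was examined next. *MRPL47* lies on chromosome 3 (start 179588285, end 179604649, minus strand), 516070 bases from *ZMAT3*. Between them and just beyond, *ZNF639* (0.69), *PIK3CA* (0.57), *USP13* (0.55), *NDUFB5* (0.51) and *MFN1* (0.36) were higher in *ZMAT3*-KO cells as well, whereas *ACTL6A*, whose annotated end overlaps that of *MRPL47* on the other strand, was not past the test (log2 fold change -0.07, limma adjusted p = 0.0627). These genes were named after their values were seen. The 20 genes of the table nearest to *MRPL47* had a median log2 fold change of 0.43, and 12 of them were higher and 4 lower. That is the highest such median of the 78 members, the next being 0.16 for *MRPL11*. Whether the change of *MRPL47* belongs to that of its region was not tested.

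The lower genes were spread over the genome. The 78 members lie on 21 chromosomes, and the median of the members was below 0 on each of them, while the medians of all genes per chromosome ran from -0.05 to 0.01. Members called lower were found on 18 of the 21. Around the 53 lower members, the median of the nearest genes ran from -0.14 to 0.15 and was above 0 for 22 of them.

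For 27 members a partner gene on the other strand started within 1000 bases, taking the outermost annotated position of each gene as its start. Starts of alternative transcripts can enter such pairs, and the rate of partners over all genes was not counted. Of the 21 partners that are not members and had values, 10 were lower and 5 higher in *ZMAT3*-KO cells. Over all genes 30.1% were lower and 28.7% higher. The median log2 fold change of these partners was -0.08. Members and partners were related with a Pearson's r of 0.42 and a Spearman's rho of 0.44 across these 21 pairs, a description over genes that share libraries and sequence. *MRPL46* and *MRPS11* are members that start 63 bases apart on chromosome 15, and changed by -0.39 and -0.19. *MRPL49* (-0.21) starts 6 bases from *FAU* (-0.29), which encodes a cytosolic ribosomal protein fused to a ubiquitin-like one. In other pairs the partners parted, as for *MRPS34* (-0.17) and *EME2* (0.72), and for *MRPS12* (-0.10) and *SARS2*, the mitochondrial seryl-tRNA synthetase (0.17).

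Promoter sequence was looked at because the members moved mostly one way. RefSeq promoter windows (GRCh38.p14, from 250 bases before the annotated start to 50 after it) were found for 69 of the 78 members, with 85 windows in all. Windows were searched on both strands for CCGGAAG (bound by ETS factors such as GABP), AAGATGGC (YY1), GCATGCGC (NRF1), CACGTG (E-box) and TGAGTCA (AP-1), none of which contains another. CCGGAAG was in 38.8% of the members' windows and 10.3% of all 35116 windows, AAGATGGC in 27.1% and 2.89%, GCATGCGC in 7.06% and 3.05%, and CACGTG in 10.6% and 7.26%. TGAGTCA was in no member window and in 4.95% of all windows. By gene, CCGGAAG was found for 19 of the 47 lower members, 8 of the 18 not past the test and 3 of the 4 higher members. AAGATGGC was found for 13, 7 and 1 of the same groups. A match is a description of letters and not a site. The 250 bases before the start are shown for the members with the 2 largest decreases and for *MRPL47*, with matches in capitals. They cover chr13:40771191-40771440 (minus strand) for *MRPS31*, chr2:223957213-223957462 (plus strand) for *MRPL44* and chr3:179604639-179604888 (minus strand) for *MRPL47*.
MRPS31: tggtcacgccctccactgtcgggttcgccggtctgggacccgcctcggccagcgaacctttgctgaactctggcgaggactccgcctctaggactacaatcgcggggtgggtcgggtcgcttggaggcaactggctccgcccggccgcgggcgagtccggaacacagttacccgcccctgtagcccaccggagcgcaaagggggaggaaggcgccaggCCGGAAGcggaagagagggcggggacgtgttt
MRPL44: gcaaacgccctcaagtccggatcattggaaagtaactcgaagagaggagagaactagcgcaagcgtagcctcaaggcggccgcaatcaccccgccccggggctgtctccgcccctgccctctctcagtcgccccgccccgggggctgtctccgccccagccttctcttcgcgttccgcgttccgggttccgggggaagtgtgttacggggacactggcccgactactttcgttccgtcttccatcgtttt
MRPL47: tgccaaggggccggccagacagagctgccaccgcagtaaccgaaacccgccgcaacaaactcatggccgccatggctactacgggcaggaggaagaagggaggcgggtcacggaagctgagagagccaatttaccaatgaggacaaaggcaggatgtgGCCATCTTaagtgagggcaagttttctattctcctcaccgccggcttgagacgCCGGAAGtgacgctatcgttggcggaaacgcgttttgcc

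The *MRPS31* stretch holds CCGGAAG starting 32 bases before the start, the *MRPL44* stretch holds none of the motifs, and the *MRPL47* stretch holds AAGATGGC (as its reverse complement, 92 bases before the start) and CCGGAAG (39 bases before the start). *MRPL47* and *NDUFB5* start 41 bases apart on opposite strands, so the CCGGAAG of that stretch lies close to the start of both genes. Whether any of these letters relates to the changes was not tested.

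Other genes of mitochondrial translation were followed from lists chosen by function. All 5 listed mitoribosomal proteins with other names were lower in *ZMAT3*-KO cells, from *CHCHD1* (-0.15) to *AURKAIP1* (-0.25), with *DAP3*, a small-subunit GTP-binding protein, at -0.16. Of 24 assembly factors, 19 were lower and 1 higher (median -0.20). *MRM1* and *MRM3*, which methylate the large-subunit ribosomal RNA, changed by -0.73 and -0.57, *MTERF3* by -0.48, and *NGRN* by 0.12. Of 19 translation factors, 12 were lower and 2 higher (median -0.16). *TSFM* and *TUFM*, the elongation factors Ts and Tu, changed by -0.54 and -0.26, *TACO1*, an activator of *MT-CO1* translation, by -0.51, and *HEMK1*, which methylates a release factor, by 0.33.

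The genes that charge mitochondrial tRNAs were more mixed, with 12 of 22 lower and 5 higher (median -0.11). *GATB*, a subunit of the glutaminyl-tRNA amidotransferase, changed by -0.44, whereas *GATC*, its partner subunit, changed by 0.20, and *WARS2*, the tryptophanyl-tRNA synthetase, by 0.58. Among genes that copy and transcribe mitochondrial DNA or turn over its RNA, 10 of 13 were lower and none higher (median -0.22), including *PNPT1* (-0.51), *TEFM* (-0.36) and *TFAM* (-0.28). Of 8 regulators of mitochondrial biogenesis, 6 were lower and none higher (median -0.14), among them *MYC* (-0.30), *NRF1* (-0.19) and *YY1* (-0.18), while *GABPA* changed by 0.05 (limma adjusted p = 0.296).

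This ribosome translates the 13 mRNAs encoded in mitochondrial DNA. In *ZMAT3*-KO cells 9 of them were higher and none lower, with a median log2 fold change of 0.27 and the largest increase in *MT-ND6* (0.96), the one encoded on the light strand. The other 4 did not pass the test, and of these *MT-CO1* (-0.12, limma adjusted p = 0.0501) and *MT-CO2* (-0.08, limma adjusted p = 0.225) lay below 0. Cytosolic ribosomal protein genes, the most similar group, had 41 of 81 lower and 2 higher, with a median of -0.08. The difference between this median and that of the mitochondrial ones was not tested. The mRNAs of mitochondrial DNA were captured here on oligo(dT), so their values also depend on their poly(A) tails. *MT-ND6* had by far the lowest level of the 13, at a mean of 4.94 log2 CPM in *ZMAT3*-WT libraries. The next was *MT-ND4L* at 8.75. The SD between *ZMAT3*-WT cultures reached 0.29 log2 units in *MT-ND4*. All libraries were also deposited with 1 common distribution, so a difference between them is one of rank among the genes.

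**Figure D3:**
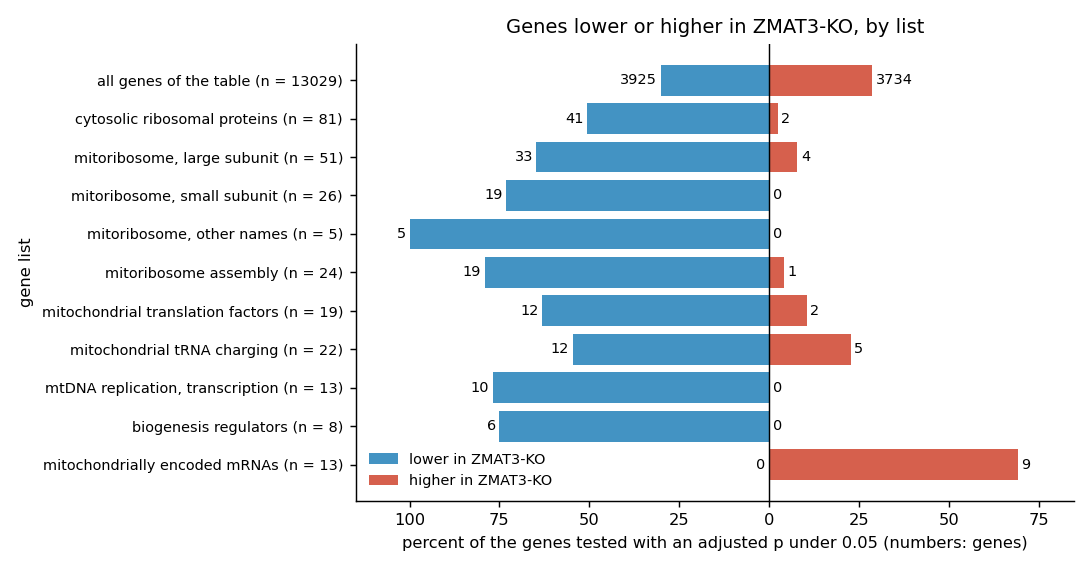
Percent of the genes tested (x axis) in each list (y axis, with the number tested) that were lower (blue, left) or higher (red, right) in *ZMAT3*-KO cells at a limma adjusted p under 0.05, with the number of genes at each bar. Blue bars exceed the 30.1% of all genes in every nuclear list, and the mitochondrially encoded mRNAs have 9 genes on the red side and none on the blue.

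The second comparison was that of sip53 with siCTRL. Few members passed the test. Of the 76 genes tested, 4 had an unadjusted limma p under 0.05 and were higher (5.26%), against 5.86% of all genes, and 1 was lower (1.32%), against 9.28% of all genes. None passed an adjusted p of 0.05 in limma, where 0.273% of all genes did. These counts depended on how the libraries were paired. With equal replicate numbers as a block no member was called, and over all genes 434 were higher and 650 lower. A fit added after the data were seen paired siCTRL 1 to sip53 2 and siCTRL 2 to sip53 1 as a block. In it 13 members were higher (16.9% of all genes) and 15 were lower (21.9% of all genes). An adjusted p of 0.05 in limma was passed by 13 members (25.5% of all genes). With 2 libraries a group, deviations from the group mean mirror each other, so 1 of the 2 pairings always correlates positively. Blocking on that pairing narrows the residual spread, so the higher counts do not show that the libraries were paired. The median log2 fold change on the log2(FPKM + 0.1) scale was -0.02 for the members and -0.04 for all genes, and 36 values were above and 40 below 0. Groups did not overlap in 13 members that were higher with sip53 (20.1% of all genes) and in 15 that were lower (26.3% of all genes). All 5 genes past the unadjusted threshold were of the large subunit. Of its 49 genes 8.16% were higher and 2.04% lower, against 5.86% and 9.28% of all genes. The 26 small-subunit genes ranged from -0.41 to 0.45, and the difference between the subunits was not tested.

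*MRPL52*, a large-subunit protein with no bacterial counterpart, had the largest increase. It read 77.2 and 101 FPKM (siCTRL) against 121 and 149 FPKM (sip53). The groups were separate, though the 2 libraries of each differed from each other by more than 20 FPKM. It changed by 0.60 on the log2 scale (standard error 0.23, limma adjusted p = 0.308).

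*MRPL23*, the counterpart of a bacterial protein at the exit of the peptide tunnel, read 40.1 and 44.1 FPKM (siCTRL) against 59.4 and 66.0 FPKM (sip53) (log2 fold change 0.57, limma adjusted p = 0.245). *MRPL54* read 45.8 and 52.8 FPKM (siCTRL) against 67.3 and 72.3 FPKM (sip53) (log2 fold change 0.50, limma adjusted p = 0.295). *MRPL18*, whose bacterial counterpart binds the smallest ribosomal RNA, read 72.4 and 70.8 FPKM (siCTRL) against 100 and 95.8 FPKM (sip53) (log2 fold change 0.45, limma adjusted p = 0.311). Values with sip53 were above both siCTRL values in each of these genes.

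*MRPL40*, a large-subunit protein with no bacterial counterpart, was the one member that was lower. It read 47.4 and 38.5 FPKM (siCTRL) against 23.7 and 31.8 FPKM (sip53), again without overlap, and changed by -0.64 (standard error 0.23, limma adjusted p = 0.294). With 2 libraries a group these calls were fragile. Those on *MRPL52*, *MRPL23*, *MRPL54* and *MRPL18* were lost whichever library was left out, with log2 fold changes from 0.40 (*MRPL54* without siCTRL replicate 1) to 0.80 (*MRPL52* without siCTRL replicate 2), and that on *MRPL40* was lost without siCTRL replicate 1 (-0.49), siCTRL replicate 2 (-0.79) or sip53 replicate 1 (-0.43). With the replicate number as a block none of the 5 passed, without a variance trend only *MRPL23* did, *MRPL40* was also lost after centring on the median gene, and *MRPL18* with a filter at a mean of 5 FPKM. *MRPL51*, the most abundant member, lay just outside the threshold at 129 and 139 FPKM (siCTRL) against 185 and 180 FPKM (sip53) (log2 fold change 0.45, limma adjusted p = 0.331).

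**Figure D4:**
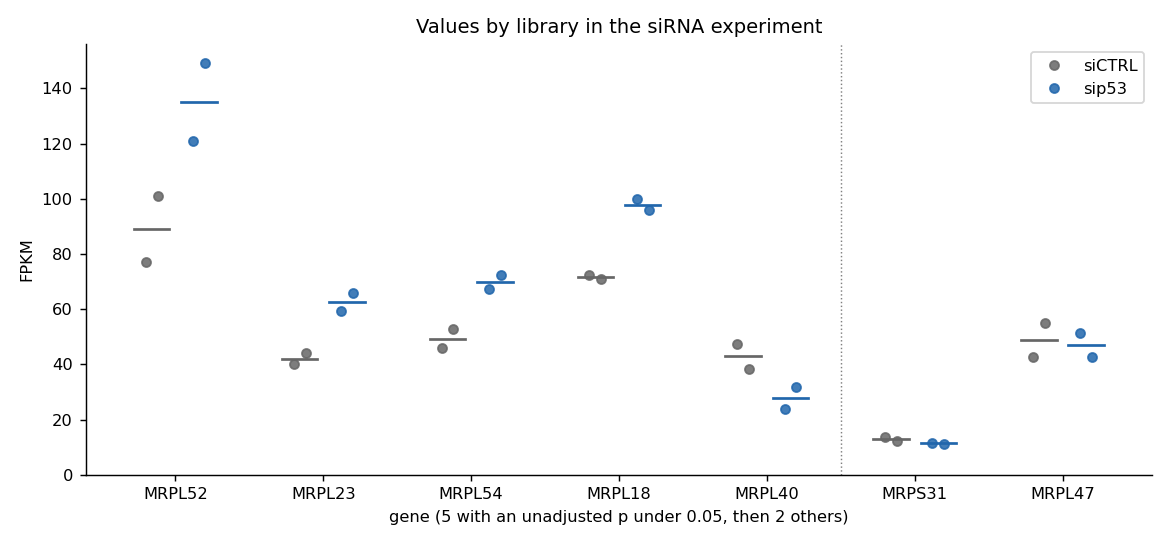
FPKM (y axis, from 0) of the 5 genes with an unadjusted p under 0.05 and of *MRPS31* and *MRPL47* (x axis), with a point for each library, grey for siCTRL and blue for sip53, and a line at the mean of each group (n = 2). Groups are separate in the first 5 genes, *MRPS31* lies between 11.2 and 13.7 FPKM in all 4 libraries, and the groups of *MRPL47* overlap.

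The genes that changed most in *ZMAT3*-KO cells had small differences here. *MRPS31* read 13.7 and 12.3 FPKM (siCTRL) against 11.5 and 11.2 FPKM (sip53) (log2 fold change -0.19, 95% confidence interval -0.64 to 0.25). *MRPL47* read 42.7 and 54.9 FPKM (siCTRL) against 51.5 and 42.6 FPKM (sip53) (-0.05, 95% confidence interval -0.60 to 0.50). Intervals of this width include the change seen in *ZMAT3*-KO cells for *MRPL47*. That of *MRPS31* ends short of its estimate of -0.74 in *ZMAT3*-KO cells, but almost touches the interval there (-0.85 to -0.64). Both sip53 values of *MRPS31* were below both siCTRL values. The difference between the experiments was not tested. *MRPL2* (0.24, 95% confidence interval -0.27 to 0.76) and *MRPL44* (0.17, 95% confidence interval -0.27 to 0.62) lay above 0. These intervals did not meet those in *ZMAT3*-KO cells (-0.62 to -0.46 for *MRPL2* and -0.61 to -0.47 for *MRPL44*). Both sip53 values of *MRPL44* were above both siCTRL values, while the groups of *MRPL2* overlapped. *MRPL57* and *MRPL58* are in that table under their earlier symbols *MRP63* and *ICT1*, which the rule did not take. *MRP63* changed by -0.50 (limma adjusted p = 0.415) and *ICT1* by 0.35 (limma adjusted p = 0.550). A second entry for *MRPS17* was at 0.03 to 0.27 FPKM and was below the filter on low values.

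Among the related lists, few genes passed the unadjusted threshold with sip53, where 5.86% of all genes were higher and 9.28% lower. Shares lower were 8.33% of assembly factors and 5.26% of translation factors. They were 13.6% of tRNA-charging genes and 23.1% of genes of mitochondrial DNA expression, and 10.5% of translation factors were higher. The difference of any list from all genes was not tested. Assembly factors had 2 of 24 lower, *MRM1* (-1.02) and *MTG1* (-1.0), a GTPase of large-subunit assembly, and none higher. Translation factors had 2 of 19 higher, *MTFMT* (0.88), which formylates the initiator tRNA, and *C12orf65* (0.62), and 1 lower, *GFM1* (-0.63), an elongation factor G. Of 22 tRNA-charging genes 3 were lower, *FARS2* (-0.64), *GATC* (-0.59) and *LARS2* (-0.53). Of 13 genes of mitochondrial DNA expression 3 were lower, *MTERF* (-1.01), *TEFM* (-0.82) and *PNPT1* (-0.64). None of the 7 mitoribosomal proteins of other names, the 8 biogenesis regulators or the 13 mitochondrially encoded mRNAs passed, the last with a median of -0.24 and groups that overlapped in every gene. Of 82 cytosolic ribosomal protein genes 1 was lower and none higher, but 78 were above 0, with a median of 0.28 against -0.02 for the mitochondrial ones. The adjusted p of each gene named from these lists was above 0.05.

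Both experiments can be set side by side, since they share no library. Of the 76 members with values in both, 3 fell in *ZMAT3*-KO cells while passing the unadjusted threshold upwards with sip53, namely *MRPL54*, *MRPL23* and *MRPL18*, where 1.93% of the 11385 genes tested in both had that pattern. No member had any of the other 3 patterns, which 2.92% (lower in both), 1.7% (higher in both) and 3.53% (higher in *ZMAT3*-KO, lower with sip53) of those genes had. In *ZMAT3*-KO cells *MRPL54* changed by -0.24 (limma adjusted p = 0.00243), *MRPL23* by -0.18 (limma adjusted p = 0.00142) and *MRPL18* by -0.10 (limma adjusted p = 0.0183). The *MRPL18* call was lost without *ZMAT3*-KO replicate 2 or *ZMAT3*-WT replicate 3 (limma adjusted p = 0.0649 and 0.0689), and without a variance trend in the fit (limma adjusted p = 0.0533). Across the 76 members the log2 fold changes of the experiments had a Pearson's r of 0.03 and a Spearman's rho of -0.02. Across all 11385 genes tested in both, these values were -0.03 and -0.05. Both are descriptions over genes that share libraries. The corresponding promoters are shown for *MRPL54* (chr19:3762432-3762681, plus strand) and *MRPL18* (chr6:159789562-159789811, plus strand) as the 250 bases before the start. The first holds the reverse complement of CCGGAAG 21 bases before the start, and the second holds none of the motifs.
MRPL54: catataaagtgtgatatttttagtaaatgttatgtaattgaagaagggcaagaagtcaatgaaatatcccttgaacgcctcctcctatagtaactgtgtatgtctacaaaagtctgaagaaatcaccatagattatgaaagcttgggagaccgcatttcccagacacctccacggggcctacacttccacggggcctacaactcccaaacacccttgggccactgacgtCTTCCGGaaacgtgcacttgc
MRPL18: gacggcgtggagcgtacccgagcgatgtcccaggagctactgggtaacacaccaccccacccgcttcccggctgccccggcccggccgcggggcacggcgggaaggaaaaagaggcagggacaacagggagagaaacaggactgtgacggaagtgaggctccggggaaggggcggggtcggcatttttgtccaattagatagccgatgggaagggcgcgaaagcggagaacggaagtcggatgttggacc

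**Figure D5:**
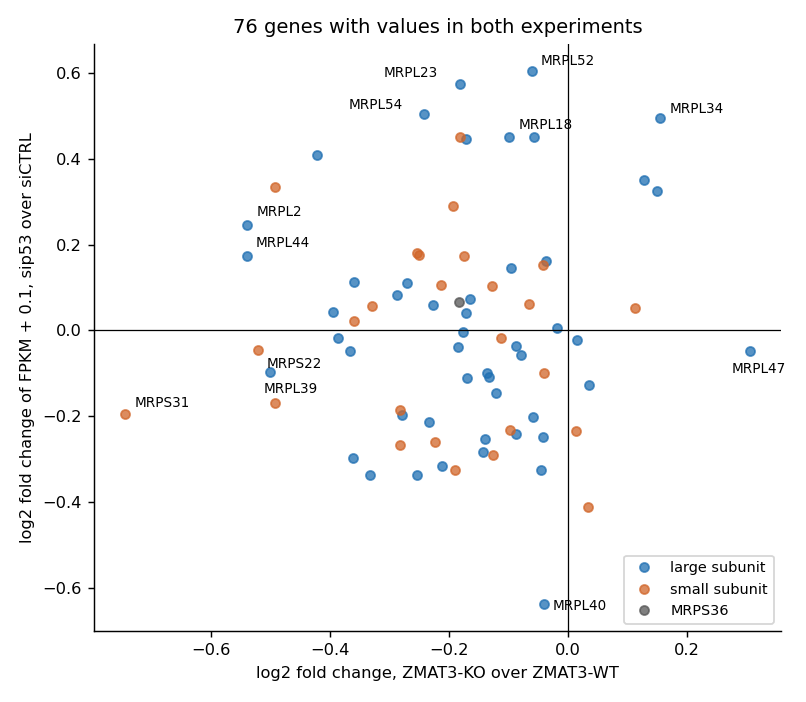
Log2 fold change in *ZMAT3*-KO cells (x axis) against that with sip53 (y axis, on the log2(FPKM + 0.1) scale) for the 76 genes with values in both experiments, blue for the large subunit, orange for the small subunit and grey for *MRPS36*. Most points lie left of 0 on the x axis, and they spread about evenly above and below 0 on the y axis (36 and 40 genes).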

How the data were processed

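Samples were grouped by their labels, and columns were matched to samples by name. Libraries of the *ZMAT3* experiment were made by the authors from oligo(dT)-selected mRNA; after Cutadapt trimming, STAR alignment to hg38 and RSEM quantification, log2 CPM values were deposited, with 1 distribution common to the 6 libraries. The authors deposited the siRNA values with no unit named. They are taken here to be FPKM, and the paper does not say how they were made. The submitters' processing notes name CASAVA 1.8.2, TopHat2 2.0.8, FastQC 0.11.2 and the builds hg19 and hg38. For 166 single-transcript genes, the deposited value times length over the mean signal had a median of 34.2, against 32.4 for FPKM. The authors also deposited a mean signal, fold changes and log2 fold changes (ratios), a standard error and test statistic (a score) and p-values from their own comparisons, which were not used as results.

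Each experiment was fitted over all its genes with limma 3.58.1 in R 4.3.3 (variance trend, two-sided, Benjamini-Hochberg adjustment). The *ZMAT3* fit used log2 CPM as deposited, with calls at adjusted p values under 0.05. The siRNA fit used log2(FPKM + 0.1) of 14274 genes averaging 0.5 FPKM or more, and genes were called at an unadjusted p of 0.05. This scale understates changes of low genes. Exact permutation tests cannot give a two-sided p below 0.1 with 3 against 3 libraries or 0.333 with 2 against 2. Counts and medians of lists are descriptions. The members and lists were chosen with earlier results of these data known. Named members were, per experiment, the 5 largest increases and 5 largest decreases among called members, those past 1.5-fold or called in both, the 3 most and 3 least abundant, and *MRPL47*, *MRPS18A*, *MRPS18B*, *MRPS18C*, *MRPS30* and *MRPS36*; from the lists, the genes with the largest changes and a few of known role. Symbols of antisense transcripts, pseudogenes and divergent transcripts were left out by gene type. Fits were tested on simulated data. The level of the gene targeted by the siRNA pool is not reported here. Tables were handled with Python 3.11.15, pandas 2.3.3 and numpy 2.4.6, and figures drawn with matplotlib 3.10.9.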

Additional observations from a re-analysis of the deposited data

How the results depend on the processing

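In the *ZMAT3* experiment the number of members called lower was 49 to 57 over the alternatives tried (a pseudocount of 1 on linear CPM, a filter at a mean log2 CPM of 0, centring on the median gene, no variance trend, the replicate block, and each library left out), and their median log2 fold change was -0.19 to -0.15. The number called higher was 2 to 5, and 2 to 5 with a library left out. Of 253 values of named members, 238 kept direction and side of the threshold, 11 lost the threshold, 2 gained it and 2 changed direction. Both of the last were of *MRPL50*, which did not pass in any fit and ran from -0.012 to 0.044 with a library left out. In the siRNA experiment the median of the members was 0.058 after centring, which raised the median of all genes by 0.08 and changed the split of all calls to 1120 higher and 1048 lower from 836 and 1325. Members called higher numbered 1 without a variance trend (856 of all genes) and 0 with the replicate block (434 of all genes). Members called lower numbered 0 after centring and 0 without a variance trend (1298 of all genes). They numbered 0 with the replicate block (650 of all genes) and 2 with no filter (1554 of all genes). For the genes of the nuclear lists, 1 was higher and 4 were lower with the replicate block in place of 2 and 9, and 1 to 2 were higher and 3 to 8 lower with a library left out. Of 230 values of named members, 179 kept direction and side of the threshold, 30 lost the threshold, 3 gained it and 18 changed direction, none of these past the threshold before or after the change. After centring, *MRPL47* (0.028), *MRPL50* (0.054), *MRPS18A* (0.040) and *MRPS22* (0.031) turned positive. With a library left out, *MRPL30* ran from -0.13 to 0.83, *MRPL47* from -0.23 to 0.13, *MRPL50* from -0.29 to 0.25, *MRPS18A* from -0.25 to 0.18, *MRPS22* from -0.092 to 0.0019, *MRPS23* from -0.37 to 0.029, *MRPS30* from -0.26 to 0.010, *MRPS34* from -0.014 to 0.36 and *MRPS36* from -0.65 to 0.78. The cause of these differences was not tested.

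Replicate numbers were checked as a pairing. In the *ZMAT3* experiment same-numbered libraries did not deviate together over all genes (correlations -0.04, -0.02 and -0.09). This cannot tell whether equal numbers mark cultures handled together. The block gave 57 members lower in place of 53, and 4133 of all genes lower in place of 3925. In the siRNA experiment the correlation was -0.62 for equal and 0.62 for crossed numbers. With 2 libraries a group these values mirror each other by construction, so they cannot tell which libraries belong together. With the crossed pairing as a block, added after the data were seen, 13 members were higher and 15 lower, and 13 passed an adjusted p of 0.05.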
